A study of Mus musculus with 6 samples.

Results

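Imprinted genes were examined in the sciatic nerve of adult C57BL/6J mice, an inbred strain, 24 h after a sham operation in which the left nerve was exposed but not cut. The set held 40 genes chosen by symbol, among them Igf2, H19, Dlk1, Meg3, Cdkn1c, Peg3, Grb10 and Gnas, out of 54309 genes in the tables. The sample titles name the left sciatic nerve and no segment, while the methods of the study name the proximal segment as what was collected. Nerves of mice aged 6 to 8 weeks were sequenced as 3 female pools (F1, F2 and F3) and 3 male pools (M1, M2 and M3), each made from 2 mice, with no transgene in either sex. Sex was the comparison that the design allowed. Of the 40 symbols, 39 were found as written, and the remaining one, Nespas, was found under its current symbol Gnasas1.

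In some or all tissues, imprinted genes are expressed from the maternal or paternal copy alone, according to DNA methylation set in the germ line. They often lie in clusters that share a control region. Membership of the set thus does not mean that a gene is expressed from a single copy in nerve. Many act on growth: Igf2, a secreted growth factor, is expressed from the paternal copy, whereas the cell cycle inhibitor Cdkn1c and the receptor adaptor Grb10, which both restrain growth, are expressed from the maternal copy in most tissues. Several fall steeply after birth and persist in mesenchymal, endocrine or stem cells. In a pure inbred strain the parental copies carry the same sequence, so the copy that gave each transcript could not be told apart in these libraries.

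Depth and cell markers set the precision of what follows. The pools held 55949876 to 78473057 estimated read pairs, and levels are given as TPM, the share of a transcript among all transcripts of its library after division by length, so that genes can be compared. Transcripts of myelinating Schwann cells were abundant in every pool, with a summed level of 8 markers of 33696 to 43038 TPM, while 7 neuronal markers summed to 6.58 to 9.97 TPM. Pool F2 carried skeletal muscle RNA, with 9 markers summing to 2923 TPM against 14.9 to 208 TPM in the other pools. The summed macrophage markers differed by sex without overlap: 5 genes summed to 715 to 729 TPM in the female and 800 to 884 TPM in the male pools. Csf1r, Cd68 and Cx3cr1 lay higher in every male pool than in any female pool, while Adgre1 overlapped on this scale. Mrc1 went the other way with overlap, at 147, 115 and 136 TPM in the female and 99.5, 143 and 88.2 TPM in the male pools.

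The sequences before the start sites that carried the results are shown first, since the promoter shares and the sex comparison both refer to them. Each is the 150 bases before an annotated start site in GRCm39, read 5′ to 3′ along the transcribed strand, and capitals mark matches on either strand to the GC box GGGCGG, the CCAAT box CCAAT and the TATA box TATAAA. None overlapped an annotated exon.
Igf2, leading site, chr7:142211234-142211383 (minus strand): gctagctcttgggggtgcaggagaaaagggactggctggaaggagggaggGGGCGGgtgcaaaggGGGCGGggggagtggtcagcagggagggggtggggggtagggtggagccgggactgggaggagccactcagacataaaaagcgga
Igf2, next site upstream, chr7:142213235-142213384 (minus strand): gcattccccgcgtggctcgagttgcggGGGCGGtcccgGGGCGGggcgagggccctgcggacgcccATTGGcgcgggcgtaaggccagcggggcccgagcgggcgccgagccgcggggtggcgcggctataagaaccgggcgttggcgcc
Igf2, the site upstream of that, chr7:142215043-142215192 (minus strand): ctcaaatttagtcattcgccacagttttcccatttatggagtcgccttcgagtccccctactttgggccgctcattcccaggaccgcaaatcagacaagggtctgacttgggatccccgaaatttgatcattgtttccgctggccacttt
H19, chr7:142131918-142132067 (minus strand): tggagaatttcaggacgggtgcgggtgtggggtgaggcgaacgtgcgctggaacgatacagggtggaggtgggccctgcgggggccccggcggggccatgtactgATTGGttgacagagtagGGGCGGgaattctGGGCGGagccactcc
Grb10, leading site, chr11:11987420-11987569 (minus strand): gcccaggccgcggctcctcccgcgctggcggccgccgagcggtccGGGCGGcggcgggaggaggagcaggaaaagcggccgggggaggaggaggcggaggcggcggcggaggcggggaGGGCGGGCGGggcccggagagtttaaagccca
Grb10, next site downstream, chr11:11978115-11978264 (minus strand): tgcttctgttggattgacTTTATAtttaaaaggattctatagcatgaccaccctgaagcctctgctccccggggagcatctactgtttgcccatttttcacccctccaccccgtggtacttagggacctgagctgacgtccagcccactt
The leading Igf2 window held 2 GC boxes, the nearer beginning 85 bases before the start, and no CCAAT box, and its GC content was 66.7%. The next Igf2 window held 2 GC boxes and 1 CCAAT box at a GC content of 79.3%, and the third held none of these letters at 50.0%. H19 had 2 GC boxes, the nearer beginning 15 bases before the start, and 1 CCAAT box. The leading Grb10 window had 3 GC boxes and a GC content of 80.7%, and the downstream Grb10 window had none and a single TATA match 132 bases from the start. Over the 150 bases before the 5′ end of 16258 tested genes, 32% held a GC box, 26% a CCAAT box and 5.28% a TATA box, and the median GC content was 55.3%. These matches describe letters and are not evidence of binding.

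Peg10 and Sgce, both paternally expressed, start 99 bases apart and run away from each other, so the 98 bases between them lie upstream of both annotated starts. They are printed along the Peg10 strand, with capitals marking the same motifs.
Peg10 and Sgce, chr6:4747208-4747305 (plus strand): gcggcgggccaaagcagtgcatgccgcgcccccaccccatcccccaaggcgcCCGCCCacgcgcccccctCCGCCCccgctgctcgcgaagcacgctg
This interval held 2 GC boxes and a GC content of 79.6%.

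Igf2 and H19 are also hosts of microRNAs, short RNAs that pair with messages through a seed. The mature sequences are from RefSeq, the positions in GRCm39 are from an exact match of each hairpin inside its host gene, and capitals mark the seed, bases 2 to 8.
mmu-miR-675-5p, chr7:142130849-142130870 (minus strand): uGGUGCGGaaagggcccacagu
mmu-miR-675-3p, chr7:142130815-142130836 (minus strand): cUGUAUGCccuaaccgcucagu
mmu-miR-483-5p, chr7:142208705-142208726 (minus strand): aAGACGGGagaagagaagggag
mmu-miR-483-3p, chr7:142208669-142208689 (minus strand): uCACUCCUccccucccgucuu
The 4 seeds differ from one another. Mature microRNAs carry no poly-A tail and were not measured in these poly-A libraries, so the levels below are those of the host transcripts.

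Most of the imprinted genes were expressed in the sham nerve. With a minimum of 1 TPM in at least 3 pools, 30 of the 40 were detected, against 28.5% of all 54309 genes. A mean of at least 10 TPM was reached by 21 of them and 100 TPM by 3: Gnas, H19 and Meg3. Ranked by mean TPM among the 16310 genes that passed the count filter, 18 members lay above the median, at 15.1 TPM, and 3 above the 90th percentile, at 93.2 TPM, while 9 lay below the 25th percentile. The 10 that were not detected were Nap1l5, Ascl2, Mkrn3, Kcnq1ot1, Usp29, Nespas, Phlda2, Rasgrf1, Rtl1 and Magel2.

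**Figure D1:**
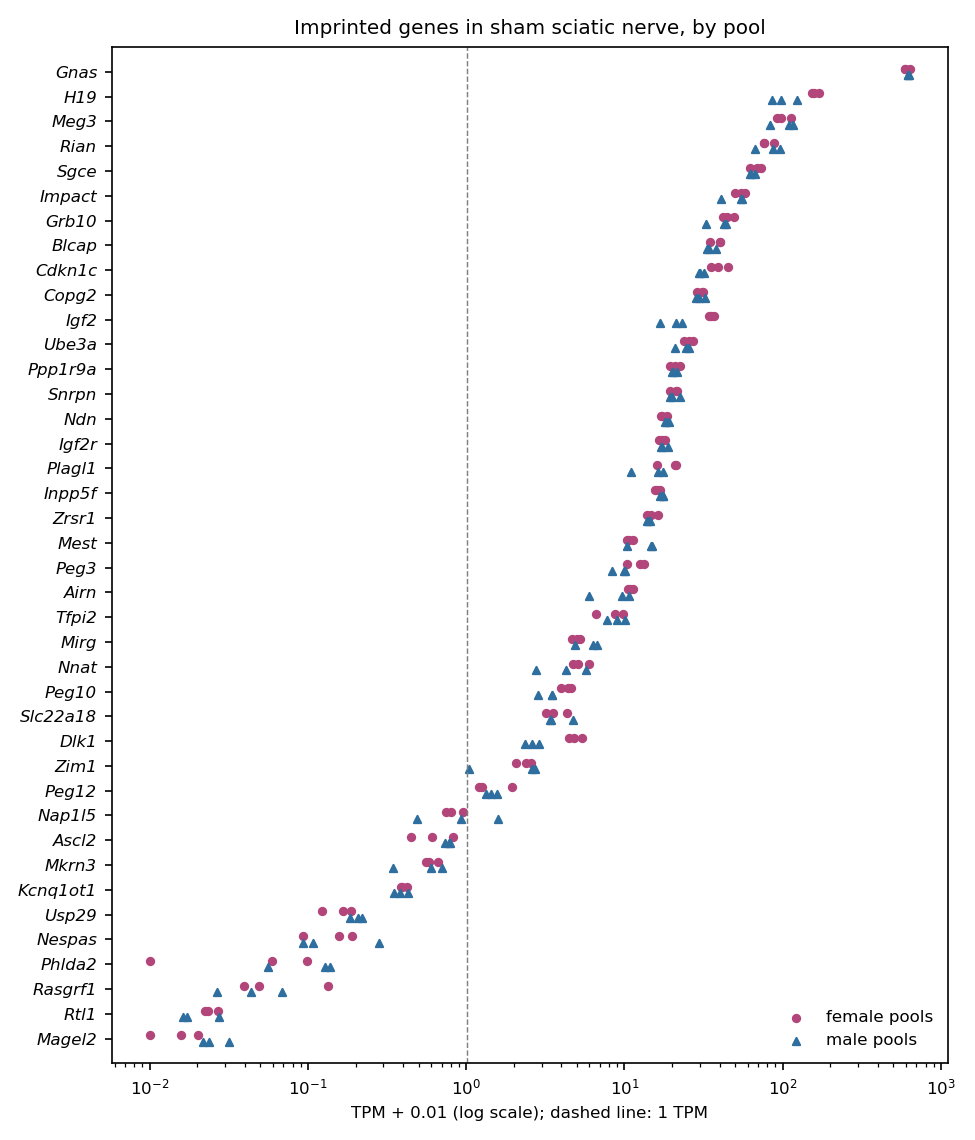
Level of each of the 40 imprinted genes in every pool, as TPM plus 0.01 on a log scale, with circles for the 3 female and triangles for the 3 male pools and a dashed line at 1 TPM. Gnas stands highest at a mean of 615 TPM, and Rtl1 and Magel2 lie lowest.

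Igf2 and H19, neighbours on chromosome 7 whose leading start sites lie 79316 bases apart, were both well expressed. Igf2 (chr7:142204503-142220694, minus strand) was at 34.3, 35.4 and 36.6 TPM in pools F1 to F3 and at 23.1, 21.1 and 16.8 TPM in M1 to M3. H19 (chr7:142129262-142133957, minus strand), a non-coding RNA from the maternal copy, was at 171, 154 and 156 TPM in the female pools and 123, 96.9 and 85.4 TPM in the male pools. For both genes every female pool lay above every male pool, and M3 was the lowest of all. The Igf2 receptor gene Igf2r, whose product removes the growth factor from the cell surface, was at 18.04, 17.3 and 16.5 TPM in the female pools and 18.9, 17.3 and 17.1 TPM in the male pools. Its antisense RNA Airn, which starts within Igf2r on the other strand, was at 10.8, 11.3 and 10.6 TPM in the female pools and 10.6, 9.57 and 5.97 TPM in the male pools. The sexes overlapped for both, and M3 stood apart for Airn.

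Among members that restrain growth, Cdkn1c and Grb10 were both above 29 TPM in every pool. Cdkn1c (chr7:143012069-143014806, minus strand) was at 39.0, 35.1 and 45.2 TPM in F1 to F3 and at 29.8, 31.7 and 30.0 TPM in M1 to M3. Grb10 (chr11:11880498-11988683, minus strand), an adaptor that binds the insulin and IGF1 receptors, was at 44.4, 41.6 and 49.5 TPM in the female pools and 42.7, 43.8 and 32.6 TPM in the male pools. The zinc finger factor Plagl1, a paternally expressed regulator of cell cycle arrest, was at 21.3, 15.97 and 20.9 TPM in the female pools and 16.3, 17.4 and 10.98 TPM in the male pools. The male and female Cdkn1c levels did not overlap, whereas those of Grb10 and Plagl1 did, with M3 lowest for both. The neighbours of Cdkn1c in the Kcnq1ot1 cluster were scarce. Slc22a18, a membrane transporter gene, averaged 3.76 TPM, Ascl2, a transcription factor of trophoblast and stem cells, 0.688 TPM, and Phlda2, a placental growth repressor, 0.0716 TPM. Kcnq1ot1, the long non-coding RNA that silences the cluster in cis, was at a mean of 0.385 TPM although 7172 read pairs were assigned to it, because TPM divides by its great length.

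The Dlk1 and Meg3 cluster on chromosome 12 was uneven. Dlk1 (chr12:109418749-109429262, plus strand), a membrane protein of preadipocytes and progenitors made from the paternal copy, was at 5.38, 4.76 and 4.45 TPM in the female pools and 2.33, 2.88 and 2.58 TPM in the male pools. Meg3, a non-coding RNA made from the maternal copy, was at 91.5, 97.3 and 113 TPM in the female pools and 109, 116 and 82.9 TPM in the male pools. The female pools exceeded the male pools in Dlk1 without overlap, and Meg3 overlapped. The other maternal RNAs downstream of Meg3, which carry small RNAs, were Rian, at 76.2, 75.7 and 87.6 TPM in the female pools and 86.6, 96.2 and 66.6 TPM in the male pools, and Mirg, with a mean of 5.45 TPM. Rtl1, a retrotransposon-derived gene that acts in placenta, averaged 0.0123 TPM.

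The paternally expressed zinc finger gene Peg3, implicated in cell death and maternal behaviour, was at 10.4, 12.5 and 13.2 TPM in the female pools and 9.88, 10.1 and 8.34 TPM in the male pools. On this scale the sexes did not overlap, but in CPM, counts relative to library size with TMM scaling, which the sex comparison used, they did. Usp29, a deubiquitinase gene whose nearest annotated start lies 109 bases from that of Peg3 on the other strand, was at a mean of 0.171 TPM. Zim1, a maternally expressed zinc finger gene in the same cluster, averaged 2.22 TPM.

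Sgce and Peg10, which start at either end of the 98-base interval shown above, differed in level. Sgce, which encodes the membrane protein ε-sarcoglycan, was at 62.4, 68.4 and 73.4 TPM in the female pools and 66.6, 63.1 and 62.3 TPM in the male pools. Peg10 (chr6:4747306-4760517, plus strand), a retrotransposon-derived gene, was at 4.38, 4.59 and 3.96 TPM in the female pools and 3.46, 3.48 and 2.84 TPM in the male pools. The female pools exceeded the male pools in Peg10, while Sgce overlapped between the sexes. Further along chromosome 6, Ppp1r9a, which encodes the actin-binding protein neurabin, was at 19.5, 22.3 and 20.9 TPM in the female pools and 20.0, 20.1 and 21.4 TPM in the male pools, and the protease inhibitor gene Tfpi2 averaged 8.63 TPM. The sexes overlapped for both.

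Mest, a paternally expressed gene of mesoderm with a hydrolase fold, was at 10.4, 11.3 and 10.6 TPM in the female pools and 14.97, 14.8 and 10.4 TPM in the male pools. Here M1 and M2 were high and M3 lay among the female pools. Copg2, a coatomer subunit gene that meets Mest tail to tail, was at 31.0, 31.1 and 28.5 TPM in the female pools and 29.4, 32.4 and 28.3 TPM in the male pools, with the sexes overlapping.

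In the Snrpn cluster, which is deleted in Prader-Willi and Angelman syndromes in humans, 4 of 6 members were detected. Snrpn, a splicing protein gene, was at 19.3, 21.6 and 21.3 TPM in the female pools and 19.4, 19.8 and 22.3 TPM in the male pools. Ndn, which encodes necdin, was at 18.6, 17.3 and 17.02 TPM in the female pools and 18.2, 19.2 and 17.96 TPM in the male pools. The ubiquitin ligase gene Ube3a, imprinted in neurons and expressed from both copies elsewhere, was at 26.9, 25.4 and 23.9 TPM in the female pools and 24.4, 25.6 and 20.9 TPM in the male pools. All 3 overlapped between the sexes. Peg12 averaged 1.45 TPM, Mkrn3, a ubiquitin ligase gene linked to puberty, 0.565 TPM, and Magel2, a relative of Ndn, 0.0105 TPM.

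Gnas (chr2:174126022-174188537, plus strand), which encodes the stimulatory G protein subunit Gsα and further proteins from other promoters, was the highest member. It was at 594, 593 and 635 TPM in the female pools and 616, 626 and 623 TPM in the male pools, so the sexes overlapped within a narrow range. Nespas, the antisense RNA of the cluster, averaged 0.143 TPM. Also on chromosome 2, Blcap, a small membrane protein gene, was at 40.1, 40.3 and 34.6 TPM in the female pools and 38.0, 33.2 and 34.0 TPM in the male pools. Nnat, a proteolipid gene that lies inside Blcap, averaged 4.74 TPM.

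The remaining members are single imprinted genes. Impact, a regulator of the translational stress response, was at 54.3, 58.0 and 49.9 TPM in the female pools and 55.0, 54.1 and 40.9 TPM in the male pools. Inpp5f, a phosphoinositide phosphatase gene, was at 16.04, 16.7 and 15.6 TPM in the female pools and 16.7, 17.4 and 17.5 TPM in the male pools. Zrsr1, a splicing factor gene that arose by retrotransposition, was at 13.9, 14.7 and 16.2 TPM in the female pools and 14.1, 13.8 and 14.5 TPM in the male pools. On the TPM scale the male pools of Inpp5f lay just above the female pools, but on the CPM scale of the sex comparison all 3 genes overlapped. Zrsr1 had no entry in the annotation used, so no position is given for it. Nap1l5, a nucleosome assembly gene, averaged 0.911 TPM and the exchange factor gene Rasgrf1 0.0501 TPM.

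The sex comparison was run over all genes, and 34 of the 40 members passed its filter of 0.5 CPM in at least 3 pools, 31 of them in all 6 pools. Rtl1, Phlda2, Usp29, Magel2, Nespas and Rasgrf1 did not pass. By edgeR's quasi-likelihood test with Benjamini-Hochberg adjustment at 0.1, 1 member, Igf2, was called, higher in females, against 0.0245% of all 16310 genes called in that direction and 0.0613% in either. The log2 fold change of Igf2 was 0.81 (SE 0.10), with an edgeR adjusted p of 0.0905. This call sat at the threshold. Without F1, F2, F3, M1 or M2 the edgeR adjusted p was 0.467, 0.275, 0.253, 0.181 and 0.230 in turn, and without M3 it was 0.037, while the log2 fold change stayed between 0.70 and 0.90. In whole tissue, more cells that make a transcript and more of it per cell cannot be told apart.

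**Figure D2:**
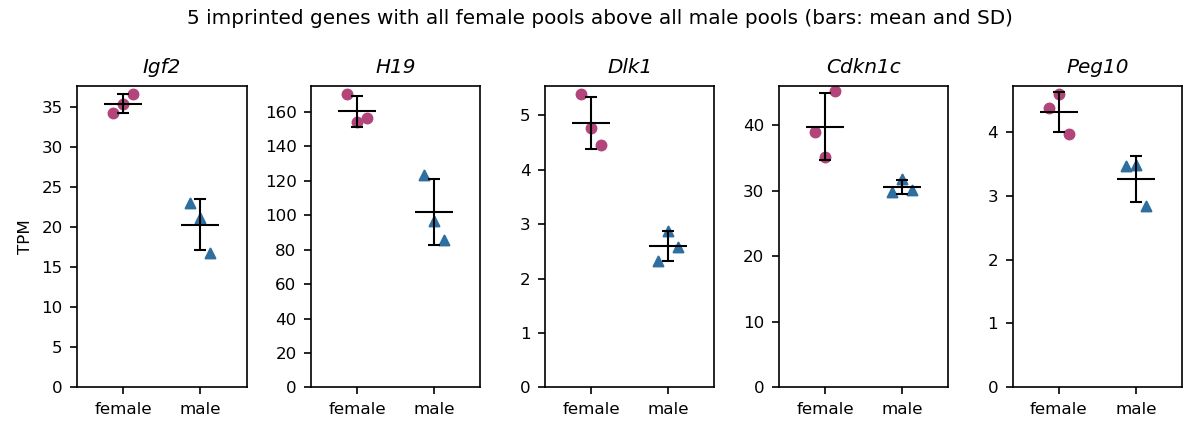
TPM of Igf2, H19, Dlk1, Cdkn1c and Peg10 in each of the 3 female pools (circles) and 3 male pools (triangles), with bars for the mean and SD and each axis starting at 0. In all 5 genes the lowest female pool lies above the highest male pool.

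In 5 of the 34 members tested, 14.7%, every female pool lay above every male pool, against 5.16% of all genes tested. They were Igf2, H19, Dlk1, Cdkn1c and Peg10. No member had every male pool above every female pool, against 6.04% of all genes, and the sexes were apart in either direction in 11.2%. In H19 the log2 fold change was 0.68 (SE 0.12, edgeR adjusted p = 0.337). In Dlk1 it was 0.89 (SE 0.17, edgeR adjusted p = 0.384), in Cdkn1c 0.47 (SE 0.09, edgeR adjusted p = 0.384) and in Peg10 0.40 (SE 0.09, edgeR adjusted p = 0.416), so these 4 did not pass. DESeq2 called all 5 at the same threshold, against 0.4% of its genes called higher in females and 0.978% in either direction. At an unadjusted p under 0.05 in edgeR, 6 members lay higher in females, 17.6% of those tested, against 2.49% of all genes, the sixth being Peg3 at a log2 fold change of 0.32 (SE 0.12, edgeR adjusted p = 0.791). Mest was the 1 member that lay higher in males at that level, against 3.62% of all genes in that direction and 6.11% in either, with a log2 fold change of -0.37 (SE 0.13, edgeR adjusted p = 0.750).

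The medians over groups of members were small. The median log2 fold change over the 34 members was 0.04, beside 0.0016 over all genes tested, with 20 members higher and 14 lower in females. In the 13 genes of the growth-related set (Igf2, H19, Igf2r, Dlk1, Meg3, Cdkn1c, Peg3, Mest, Plagl1, Grb10, Sgce, Ndn and Gnas) the median was 0.19, with 10 higher and 3 lower in females and 4 that did not overlap. In the other 21 members tested it was -0.01, with 1 that did not overlap, Peg10. In each gene that did not overlap, every female pool lay above every male pool, as in 5.16% of all genes tested. The set was chosen with earlier results of these data known, and these counts are a description.

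**Figure D3:**
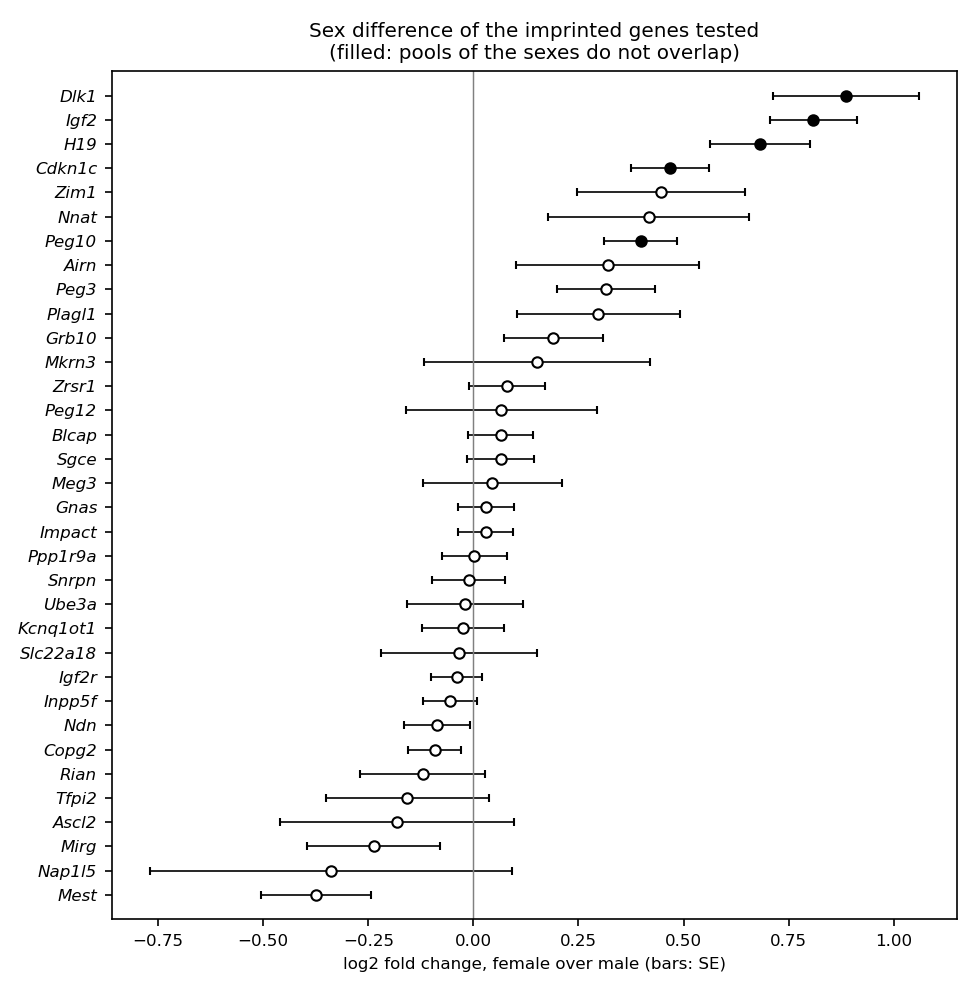
Log2 fold change, female over male, of the 34 imprinted genes tested, from edgeR, with bars for the SE and filled points where the pools of the sexes did not overlap. Dlk1, Igf2, H19, Cdkn1c and Peg10 are the filled points, at 0.40 to 0.89.

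Several cell markers moved with sex beside these genes. All 6 white adipocyte markers lay higher in females, summing to 932 to 1772 TPM in the female and 880 to 939 TPM in the male pools, and 1 of them, Lep, did not overlap. All 4 perineurial markers lay higher in females, at 441 to 482 TPM against 410 to 460 TPM in males, and 2, Itgb4 and Ntn4, did not overlap. The macrophage sum went the other way, as given above, as did 2 fibroblast collagen genes, Col1a1 and Col1a2, out of 8 fibroblast markers whose sum overlapped at 4764 to 5331 TPM in the female and 4842 to 5931 TPM in the male pools. None of these marker lists had a gene at 0 in every pool, and their part in the sex difference of the imprinted genes was not tested. Without F2, the pool with muscle RNA, the log2 fold change of Igf2 was 0.82.

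Igf2 transcripts were then divided by start site, with annotated starts within 200 bases joined and the TPM of their transcripts summed. The leading site, at position 142211233, gave 93.0%, 90.9% and 87.2% of Igf2 TPM in F1 to F3 and 89.1%, 90.6% and 89.3% in M1 to M3. Its mean share was 90.3% ± 2.96 (SD, n = 3 pools) in females and 89.7% ± 0.81 (SD, n = 3 pools) in males, a difference of 0.672 points (exact permutation test, two-sided, p = 0.7). The sites 2.0 and 3.8 kb upstream gave 4.69% ± 1.08 and 3.43% ± 0.85 in females and 4.87% ± 1.21 and 3.85% ± 1.26 in males (SD, n = 3 pools each). No reads were assigned to the sites 4.4 and 9.3 kb upstream. With 3 pools against 3, the smallest p that this test allows is 0.1. In TPM, the leading site carried 31.9, 32.2 and 31.9 in F1 to F3 and 20.6, 19.1 and 14.97 in M1 to M3, so the sexes did not overlap there either.

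Gnas was divided in the same way. The site of the Gsα transcripts, with starts from 174171799 to 174172080, gave 78.1%, 78.1% and 75.8% of Gnas TPM in females and 77.9%, 76.1% and 73.1% in males, with means of 77.3% ± 1.31 and 75.7% ± 2.40 (SD, n = 3 pools each, exact permutation p = 0.5). A site 14.3 kb further downstream, inside the gene, gave 19.5% ± 1.18 in females and 21.5% ± 2.55 in males (SD, n = 3 pools each, exact permutation p = 0.2). The most upstream site, at 174126022, where the neuroendocrine protein NESP55 is encoded on the maternal copy, gave 0.85%, 0.86% and 1.56% in females and 0.58%, 0.65% and 0.31% in males. All 3 female pools lay above the male pools at this site, which reached the smallest possible p (exact permutation p = 0.1), and its level was 1.91 to 9.93 TPM. A site 14.6 kb downstream of the Gsα start reached the same p in the other direction, with 0.63%, 0.60% and 0.60% in females and 0.84%, 0.67% and 0.70% in males. These were 2 of 27 start site shares compared between the sexes over the 3 genes, 10 of them in Gnas, and every Benjamini-Hochberg adjusted p was 1. The site 32.1 kb upstream of the Gsα start, where the extra-large protein XLαs begins, gave 0.067 to 0.234 TPM, and the one 2.4 kb upstream, in the position of exon 1A, gave 1.007% ± 0.23 in females and 0.94% ± 0.15 in males (SD, n = 3 pools each).

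Grb10 is expressed from the maternal copy in most tissues and from the paternal copy, through downstream promoters, in neurons. The site at 11987419 gave 90.7%, 89.6% and 91.1% of Grb10 TPM in females and 91.1%, 91.5% and 80.1% in males, with means of 90.5% ± 0.75 and 87.6% ± 6.49 (SD, n = 3 pools each, exact permutation p = 1). The next site with reads in every pool, 9.3 kb downstream, gave 4.00% ± 0.81 in females and 7.07% ± 6.63 in males (SD, n = 3 pools each, exact permutation p = 0.7). Its share in M3 was 14.5%, against 1.65% to 5.10% in the other pools, so the spread of the males came from that pool. Sites 10.7 and 66.8 kb downstream had no reads. Transcripts from different starts share most of their exons, so that these shares rest on the reads at the first exons, as the authors' software divided them.

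**Figure D4:**
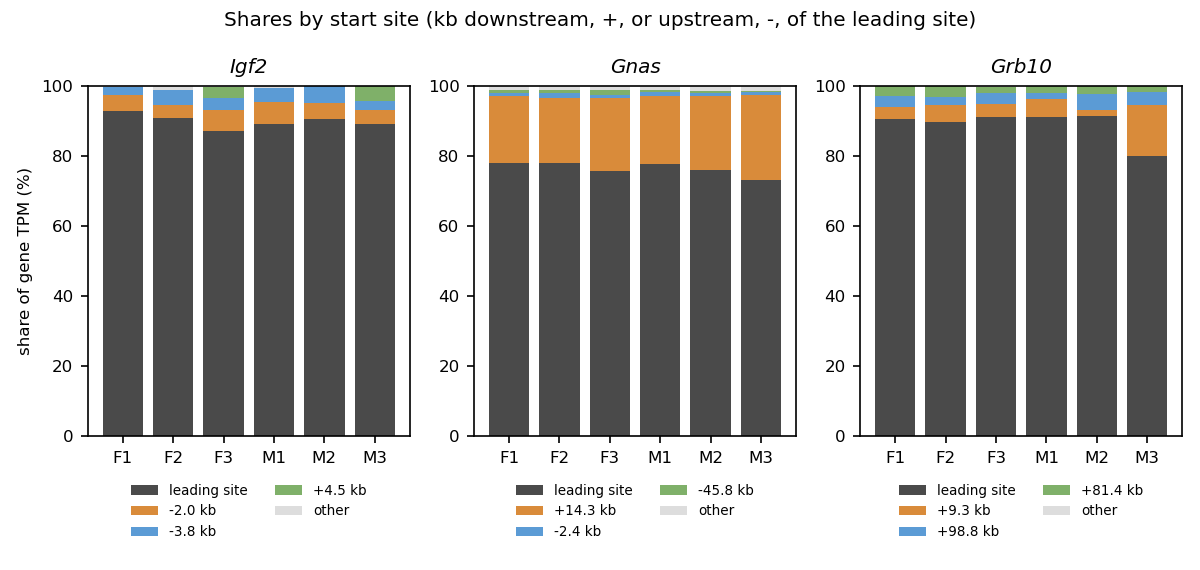
Share of the TPM of Igf2, Gnas and Grb10 from each start site in every pool, as stacked bars that add to 100%, with sites named by their distance in kb from the leading site. The leading site gives over 73% in every bar, and M3 has the largest share from the downstream Grb10 site.

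Start sites of the other members ranged from 1 main site to many. The H19 start printed above gave over 99% of its TPM in every pool, and the leading Cdkn1c start gave 60.2% ± 0.39 in females and 61.3% ± 2.27 in males (SD, n = 3 pools each). By reads, 8019 of the 9481 pairs of Cdkn1c were assigned to that start, and the other sites were led by transcripts of 667 and 500 bases. The Mest transcripts came from the start at 30738044, with 95.05% ± 3.91 in females and 98.7% ± 0.42 in males, and the Plagl1 transcripts from the starts at 12966409 and nearby, with 86.1% ± 1.84 and 89.9% ± 2.46 (SD, n = 3 pools each). Inpp5f, Meg3, Mirg and Rian were more divided. The leading site gave a mean of 56.9% of Meg3 TPM over the 6 pools, with 20.4% and 19.4% from the next ones, led by transcripts of 695 and 797 bases. A Meg3 site with a transcript of 14548 bases gave 3.15% of TPM but 11709 of the 37901 read pairs. Mirg had sites at 36.5% and 35.3%, and Rian at 29.8% and 28.3%. The upstream site of Inpp5f gave 55.8% ± 4.89 in females and 48.3% ± 3.96 in males, and the site at 128289270 ranged from 0 in F1 to 27.2% in M3.

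Covariation of the growth-related set was described over the 6 pools, from log2(TMM-scaled CPM + 1). The median Pearson r over the 78 pairs was 0.23, beside -0.0017 over all pairs of tested genes, and 51 pairs were positive. With the mean of its sex taken from each pool the median was 0.13, beside -0.0011, and 48 pairs were positive. These points share 6 libraries and the pairs share genes, so no p is given. Over the 6 pools the highest pair was Plagl1 with Grb10 (r = 0.97, Spearman rho = 1, and r = 0.96 within sex). Igf2 with H19 followed (r = 0.96, rho = 0.83, and r = 0.72 within sex). Dlk1 with Cdkn1c had r = 0.90 and rho = 0.77, and Igf2 with Dlk1 r = 0.85 and rho = 0.60, but within sex r was 0.38 and -0.28. The order differed within sex, where Meg3 with Mest (r = 0.98) and Igf2 with Meg3 (r = 0.97) were highest. Over the 6 pools these 2 pairs had r = 0.53 and 0.44. Igf2 with Mest turned from r = -0.51 over the 6 pools to 0.95 within sex.

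**Figure D5:**
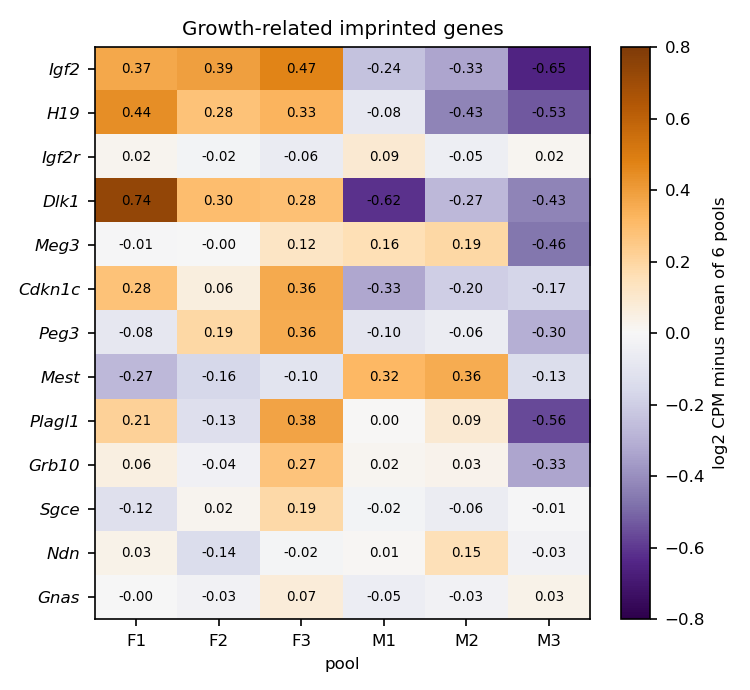
Centred level of the 13 growth-related imprinted genes in each pool, as log2 CPM minus the mean of the 6 pools, with orange above and purple below the mean. Igf2, H19, Dlk1 and Cdkn1c are above 0 in all female and below 0 in all male pools, and M3 is lowest for Meg3, Plagl1 and Grb10.

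Pools F3 and M3 lay at opposite ends. The median centred level of the 13 genes was 0.27 in F3 and -0.30 in M3, and between -0.05 and 0.03 in the other pools. The summed white adipocyte markers were highest in F3, at 1772 TPM, and lowest in M3, at 880 TPM, close to 905 TPM in M2. Adipoq was at 92.5 TPM in F3, 33.0 TPM in M3 and 51.5 to 59.8 TPM elsewhere. Fabp4 and Cfd were highest in F3 but not lowest in M3. Fabp4 was at 424 TPM in M3 and 382 TPM in M1, and Cfd at 400 TPM in M3 and 385 TPM in M2. The perineurial sum had the same ends, at 482 TPM in F3 and 410 TPM in M3. Endothelial and pericyte sums were lowest in M3 but highest in M1. Myelinating Schwann cell and macrophage sums were instead highest in M3, at 43038 and 884 TPM. The macrophage sum was close to that of M2, at 879 TPM. The part of these cell types in the shift was not tested. In M3, Igf2 was 0.65 below its mean, Plagl1 0.56 below, H19 0.53 below and Meg3 0.46 below, on the log2 scale. Without F3 the median pairwise r was 0.06, and without F1 it was 0.35, so its size depended on single pools.

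Genes that work with the imprinted set were counted from lists. Of 24 partners of IGF signalling and growth control, 21 were tested and none was called by edgeR, with 3 higher in females at an unadjusted p under 0.05, against 2.49% of all genes, and DESeq2 calling 2, against 0.978% of all genes. The most abundant were the IGF binding proteins Igfbp6, at 708 ± 64.2 TPM in the female and 703 ± 24.6 TPM in the male pools, and Igfbp7, at 593 ± 28.7 and 602 ± 37.3 TPM (SD, n = 3 pools each). Igfbp3, the main carrier of IGFs in serum, was at 68.4, 53.9 and 52.6 TPM in the female pools and 42.1, 28.4 and 28.9 TPM in the male pools, with a log2 fold change of 0.81 (SE 0.16, edgeR adjusted p = 0.416). Cdkn1a, a cell cycle inhibitor related to Cdkn1c, was at 261, 289 and 280 TPM in the female pools and 230, 222 and 237 TPM in the male pools, with a log2 fold change of 0.29 (SE 0.07, edgeR adjusted p = 0.530). Neither gene overlapped between the sexes, but both were named for having the smallest p of their list. Of the 21 tested, 3 had every female pool above every male pool, against 5.16% of all genes. The reverse held for 1, against 6.04% of all genes.

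Of 21 factors that keep imprints, such as DNA methyltransferases and the zinc finger proteins that guard imprinted regions, all 21 were tested and neither edgeR nor DESeq2 called any, with 1 higher in males at an unadjusted p under 0.05 in edgeR, against 3.62% of all genes. Trim28, the co-repressor recruited by these zinc finger proteins, was at 81.6 ± 6.49 TPM in the female and 81.8 ± 4.30 TPM in the male pools, and Zfp445 at 68.9 ± 2.46 and 66.2 ± 7.94 TPM (SD, n = 3 pools each). Arid4a had the smallest p, with 12.2 ± 0.189 TPM in the female and 13.2 ± 0.914 TPM in the male pools (edgeR adjusted p = 0.791, n = 3 pools each). The de novo methyltransferase gene Dnmt3a was at 13.5 ± 0.0703 and 14.8 ± 0.886 TPM (edgeR adjusted p = 0.838, n = 3 pools each).

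Of 42 other imprinted genes outside the set, 31 were tested and neither edgeR nor DESeq2 called any, with 1 higher in females at an unadjusted p under 0.05 in edgeR, against 2.49% of all genes. In 4 of these 31 every female pool lay above every male pool, against 5.16% of all genes. None had every male pool above every female pool, against 6.04% of all genes. Their median log2 fold change was 0.02. The highest were Cd81, a tetraspanin gene, at 356 ± 23.9 TPM in the female and 360 ± 13.04 TPM in the male pools, and H13, a signal peptide peptidase gene, at 89.7 ± 8.22 and 89.8 ± 1.76 TPM (SD, n = 3 pools each). Smoc1, a matrix protein gene, was at 6.00 ± 0.725 TPM in the female and 4.82 ± 0.482 TPM in the male pools (edgeR adjusted p = 0.712, n = 3 pools each). Slc22a2, an organic cation transporter gene, was at 2.10 ± 0.461 and 2.68 ± 0.142 TPM (edgeR adjusted p = 0.844, n = 3 pools each).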

How the data were processed

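The libraries were poly-A selected, strand-specific and paired-end. Per the submitters' processing notes, the authors trimmed reads with Trimmomatic 0.39 and quantified GENCODE transcripts with Salmon 1.5.2. The deposited files hold, per transcript, estimated counts of read pairs with no normalization and TPM values that the authors' software divided by effective length and scaled to 1 total per pool. The strand setting of the quantification is not given in the sources used here, so antisense pairs such as Airn and Igf2r are uncertain.

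Here the estimated counts and TPM of 140789 transcripts were summed to 54309 genes, and counts were rounded. Of these genes, 53700 matched GENCODE M39 on GRCm39 by identifier, which gave the positions. Genes with at least 0.5 CPM in at least 3 pools (16310) were tested, female against male, by the quasi-likelihood test of edgeR 4.0.16, fitted robustly with TMM factors and sex as the only term, and p-values were adjusted by Benjamini-Hochberg over all of them with the study's threshold of 0.1. Depth ran from 55949876 to 78473057 read pairs, and the common biological coefficient of variation was 0.154. Replicates are separate pools of mice. The spread is thus between pools and covers 2 mice each. DESeq2 1.42.0, RLE factors, transcript length offsets, other filters, the replicate number as a block, an adjusted p of 0.05 and each replicate left out were the alternatives, with other joining distances and units for shares. Fits ran in R 4.3.3 and tables in Python 3.11.15 with pandas 2.3.3 and SciPy 1.17.1. In simulated data of 16175 genes for the female against male comparison, the changed genes were drawn from those with an expected count above 50 per pool. Of these, edgeR called 50% of 50 genes changed 1.5-fold, 84% of 75 changed 2-fold and 97.3% of 75 changed 4-fold. Unchanged genes were 29 of the 190 calls, a larger share than the threshold of 0.1. Members with few reads, such as Ascl2, Mkrn3 and Nap1l5, are not covered by these rates.

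The members, lists and tests were chosen with earlier results of these data known. Values per pool are given for members with a mean of at least 10 TPM, for the growth-related set and for members at an unadjusted p under 0.05. The other members are given by level. From each other list the 2 most abundant genes and up to 2 with the smallest p are named. The window before 1 further start site is not reported here.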

Additional observations from a re-analysis of the deposited data

How the results depend on the processing

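The number of members called between the sexes was 1 by edgeR with TMM factors and moved with the processing. It was 5 with DESeq2, 4 without a filter on low counts (Igf2, H19, Dlk1 and Cdkn1c), and 0 with the stricter filter of 1 CPM or with an adjusted p of 0.05, and it ran from 0 to 1 when each replicate was left out. With the replicate number as a block, 0 members were called, the log2 fold change of Igf2 was 0.82 (edgeR adjusted p = 0.315) and 1 IGF partner was called. The labels share replicate numbers between the sexes. Deviations of same-numbered pools correlated at -0.18, -0.16 and -0.15, and those of differently numbered pools at -0.11 to 0.31. These values gave no sign of pairing by number, but with 3 pools per sex they cannot exclude it. The stricter filter gave Igf2 a log2 fold change of 0.81 (edgeR adjusted p = 0.102), and leaving out each replicate gave 0.70 to 0.90. DESeq2 called 2 IGF partners. No direction turned for Igf2, H19, Dlk1, Cdkn1c, Peg10, Peg3 or Mest under any of the 12 alternatives. The share of Gnas TPM from its leading site was 76.5%, but 58.3% with starts within 50 bases joined and 84.8% as a share of estimated counts, and that of Grb10 was 89.0%, or 94.1% over protein-coding transcripts alone. The median pairwise correlation of the growth-related set, 0.23, ran from 0.064 to 0.353 when each replicate was left out. The cause of these shifts was not tested. The number of members detected ran from 25 to 34 and the Igf2 share from 89.4% to 91.2%.

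With 3 pools per sex an exact permutation test cannot go below p = 0.1, and edgeR recovered 50% of simulated 1.5-fold changes, in genes above a count floor. A member that was not called is thus not shown to be equal, least of all one with few reads. Levels under 1 TPM rest on few reads, except that of the long Kcnq1ot1. The shares by start site depend on how reads common to several transcripts were divided. The parent of origin of each transcript was not measured.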
